A study of Mus musculus with 48 samples.

Results

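Cholesterol in the brain is made locally, because lipoproteins do not cross the blood–brain barrier in useful amounts. The pathway condenses acetyl units into mevalonate and isoprene units, joins these into squalene and closes squalene into lanosterol, which is then trimmed to cholesterol. Its genes are switched on together by SREBP2, a membrane-bound transcription factor that is released from the endoplasmic reticulum when sterols run low and is held back there by INSIG proteins when sterols are plentiful. Astrocytes and oligodendrocytes are the main makers of cholesterol in the adult brain, and neurons also express the pathway.

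The genes described here are 8 genes chosen by symbol as members of this pathway: 6 enzymes (*Hmgcs1*, *Idi1*, *Fdft1*, *Sqle*, *Lss* and *Cyp51*) and 2 regulators (*Insig1* and *Srebf2*). All 8 were found among the 19601 protein-coding genes of the batch-corrected table, and all 8 passed the filter on low counts that left 14839 genes for testing. They had been listed as genes of cholesterol synthesis and uptake, but none of the 8 encodes a receptor or carrier that takes cholesterol into cells, so they are called cholesterol synthesis genes here, with uptake genes counted in a wider list.

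The tissue was the substantia nigra (SN) of male C57BL/6J mice, a wild-type strain, so no group carried a transgene. Each mouse had received mouse α-synuclein in the right striatum, either as monomer, which served as the control, or as preformed fibrils (PFF), which seed aggregates of the protein, and then breathed 21% O2 or 11% O2. Mice were 121 days old at injection and the SN was collected 90 to 98 days later. The study's methods put the 11% O2 over the whole time after injection, whereas the deposited design text puts it in the later part only. Of 12 mice per group, the authors kept 11 monomer and 12 PFF mice at 21% O2, and 9 monomer and 10 PFF mice at 11% O2, after leaving out 6 outlying libraries. Mice fell into 3 batches, each with its own birth, injection and harvest dates, except that 1 monomer mouse at 11% O2 of batch 3 was harvested later than the others. Only batch 1 held all 4 groups. Batch 2 had no monomer mice at 11% O2 and batch 3 had no monomer mice at 21% O2. The dissected piece took in the whole of the SN, of which the dopaminergic pars compacta is a part.

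Between 12902996 and 17120921 reads per mouse were counted on genes in the 42 mice analysed. Markers of the SN were present in every group, with *Th*, the rate-limiting enzyme of dopamine synthesis, at a median of 656 TPM (a transcript level scaled to gene length and library size) in monomer and 651 TPM in PFF mice at 21% O2, and at 707 TPM and 704 TPM at 11% O2. Within groups *Th* spread widely, from 96.1 to 954 TPM among the PFF mice at 21% O2. In bulk tissue, fewer cells of a type and less RNA per cell cannot be told apart.

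Differences below are log2 fold changes with their standard errors (SE), from edgeR's quasi-likelihood test on the batch-corrected counts with the 4 groups in 1 fit. A gene was called when its Benjamini–Hochberg adjusted p, over all 14839 genes, was under 0.05 and its log2 fold change went beyond 0.25 in either direction. By the study's methods, mice breathed their gas in cages inside chambers, and the labels name no cage or chamber. The p-values therefore treat each mouse as 1 unit and leave out any spread between chambers. They come from corrected counts with no batch term, so they leave out the spread between batches as well.

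None of the 8 genes passed the test for PFF or for O2. Of the 8, 0 were called for PFF against monomer at 21% O2, where 3.70% of all genes tested were called, and 0 for PFF against monomer at 11% O2, where 0% were. Between 11% and 21% O2, 0 of the 8 were called in monomer mice, against 7.23% of all genes, and 0 of the 8 in PFF mice, against 0.580%. The interaction of injection and O2, which asks whether the PFF response differed between the O2 levels, called 0 of the 8 and 2.14% of all genes. In a list of 8 genes, 0 called lies near these shares. Across these 40 tests with edgeR, 0 reached an unadjusted p under 0.05, and the smallest p was 0.251, for *Srebf2* with PFF at 21% O2 (adjusted p = 0.523). Such a p was reached by 22.4%, 3.92%, 27.7%, 10.7% and 15.4% of all genes, in the order of comparisons above. The 40 tests are not separate, since the comparisons share mice and the 8 genes vary together. DESeq2, and limma on log2 TPM, also called 0 of the 8 in each comparison and had 0 at an unadjusted p under 0.05.

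Levels and spread of the 8 genes follow in the order of the pathway. *Hmgcs1*, the cytosolic HMG-CoA synthase, which acts early in the mevalonate pathway (chr13:119690379-119708260 on the plus strand, GRCm38), was one of the most abundant of the 8. Its batch-corrected TPM ran from 135 through a median of 158 to 230 in monomer mice at 21% O2, and from 124 through 166.4 to 236 in PFF mice at 21% O2. At 11% O2 it ran from 122 through 166.8 to 204.5 in monomer mice and from 129 through 161.2 to 190.8 in PFF mice. The 4 ranges overlapped almost entirely. PFF against monomer gave a log2 difference of 0.0070 (SE 0.092) at 21% O2, with a 95% interval from -0.18 to 0.19.

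*Idi1*, the isomerase that balances the isoprene units (chr13:8885501-8892451, plus strand), lay between 27.0 and 65.5 TPM over the 42 mice, with group means from 38.9 ± 7.69 (SD, n = 10) in PFF mice at 11% O2 to 42.9 ± 8.75 (SD, n = 11) in monomer mice at 21% O2. The widest spread was that of *Fdft1*, squalene synthase, the step that commits isoprenoids to sterols (chr14:63145150-63179578, minus strand). *Fdft1* ran from 39.6 through a median of 74.0 to 126 TPM in monomer mice at 21% O2, and from 39.2 through 76.0 to 110 TPM in PFF mice at 21% O2. At 11% O2 the values were 52.0, 82.8 and 113 TPM in monomer mice and 48.8, 74.0 and 107 TPM in PFF mice. Within the monomer group at 21% O2 alone, the highest mouse thus stood 3.19-fold above the lowest, whereas the group means differed by little, from 72.3 ± 21.3 (SD, n = 10) to 77.9 ± 20.9 (SD, n = 9) TPM. The 95% interval of the PFF difference for *Fdft1* at 21% O2 therefore reached from -0.32 to 0.34 on the log2 scale.

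*Sqle*, squalene epoxidase, the first oxygen-using step of the branch and a rate-limiting one (chr15:59315077-59331192, plus strand), lay between 23.8 and 67.8 TPM over the 42 mice. Its group means ran from 41.3 ± 9.24 (SD, n = 10) to 44.1 ± 12.2 (SD, n = 11) TPM. *Lss*, lanosterol synthase, which closes the sterol rings (chr10:76531588-76557138, plus strand), was the lowest and least variable of the 8. *Lss* ran from 15.5 through a median of 18.7 to 25.4 TPM in monomer and from 15.2 through 20.2 to 25.5 TPM in PFF mice at 21% O2, and from 16.3 through 20.1 to 21.9 TPM in monomer and from 17.1 through 18.5 to 21.6 TPM in PFF mice at 11% O2. Its ranges overlapped too, and its intervals were the narrowest, from -0.09 to 0.19 for PFF at 21% O2 and from -0.14 to 0.16 for 11% against 21% O2 in monomer mice. *Cyp51*, the lanosterol demethylase and another oxygen-using enzyme (chr5:4081145-4104746, minus strand), lay between 53.1 and 104 TPM, and was 0.095 lower on the log2 scale in monomer mice at 11% than at 21% O2 (SE 0.10, p = 0.347, adjusted p = 0.581 by edgeR), a difference within its error.

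Of the regulators, *Insig1* encodes a protein that keeps SREBP in the endoplasmic reticulum when sterols are plentiful (chr5:28071363-28078662, plus strand), and is itself a target of SREBP. It ran from 132 through a median of 168 to 225 TPM in monomer and from 138 through 181.5 to 230 TPM in PFF mice at 21% O2, and from 143 through 183.3 to 211.3 TPM in monomer and from 142 through 171.3 to 225 TPM in PFF mice at 11% O2. *Srebf2* encodes SREBP2 itself (chr15:82147181-82205379, plus strand). Its TPM ran from 70.9 through 103 to 127 in monomer and from 69.1 through 94.1 to 118 in PFF mice at 21% O2, and from 80.9 through 93.1 to 124 in monomer and from 80.2 through 94.2 to 118 in PFF mice at 11% O2. The PFF mice at 21% O2 were lower by 0.10 on the log2 scale (SE 0.087), within the error, and the ranges overlapped.

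**Figure D1:**
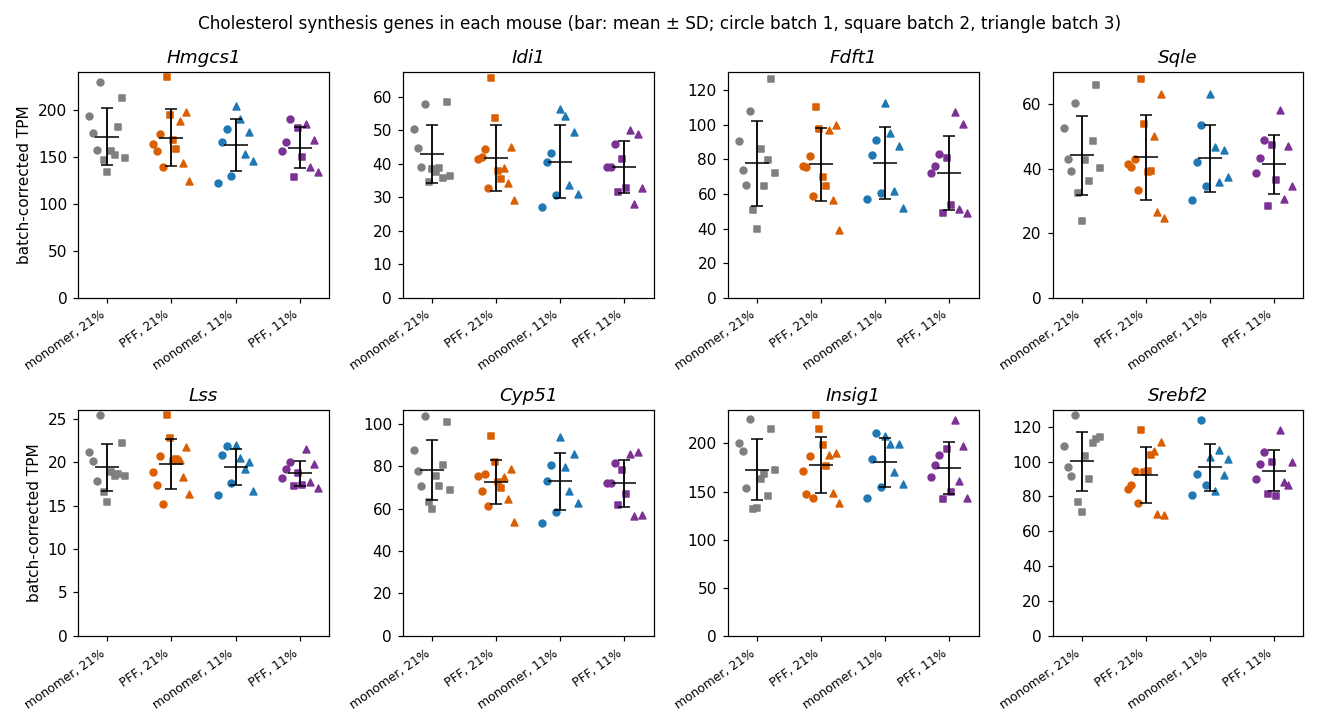
Batch-corrected TPM of the 8 genes in each of 42 mice, by group, with the mean and SD as bars and the marker shape giving the batch. For every gene the 4 groups overlap, as for *Fdft1*, whose monomer mice at 21% O2 alone span 39.6 to 126 TPM.

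By level per length over the 42 mice, *Insig1* (median 174.3 TPM, from 132 to 230) and *Hmgcs1* (164.98 TPM, from 122 to 236) stood at the top and did not differ beyond their spread. *Srebf2* followed at a median of 94.5 TPM, then *Fdft1* at 75.9 TPM and *Cyp51* at 72.9 TPM, which again overlapped, then *Sqle* at 41.7 TPM beside *Idi1* at 39.1 TPM, and *Lss* last at 19.1 TPM. The counts behind these levels before correction were at least 373 in any mouse, for *Idi1*, so counting error was small beside the spread between mice.

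The size of a change that these data could have hidden differed between the genes. Over the 40 tests, 39 had a 95% interval within 0.5 on the log2 scale in both directions, that is between 0.707-fold and 1.41-fold. The exception was the interaction for *Fdft1*, from -0.60 to 0.39. These intervals come from the corrected counts and leave out the spread between batches. In batch 1 alone, 6 values lay beyond 0.5, that of *Idi1* for 11% against 21% O2 in monomer mice and 5 for the interaction, both given below. The median log2 difference over the 8 genes was 0.0040 for PFF at 21% O2, -0.040 for PFF at 11% O2, -0.035 for 11% against 21% O2 in monomer mice and -0.077 in PFF mice, beside medians over all genes tested of 0.00085, -0.00060, -0.0060 and -0.0063. For the interaction it was -0.039, beside -0.00057. For PFF against monomer at 11% O2 all 8 values were below 0, between -0.096 and -0.0051, and each was smaller than its SE. The comparisons share groups of mice, and the 8 genes vary together between mice, so such an agreement in sign is not 8 separate observations.

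**Figure D2:**
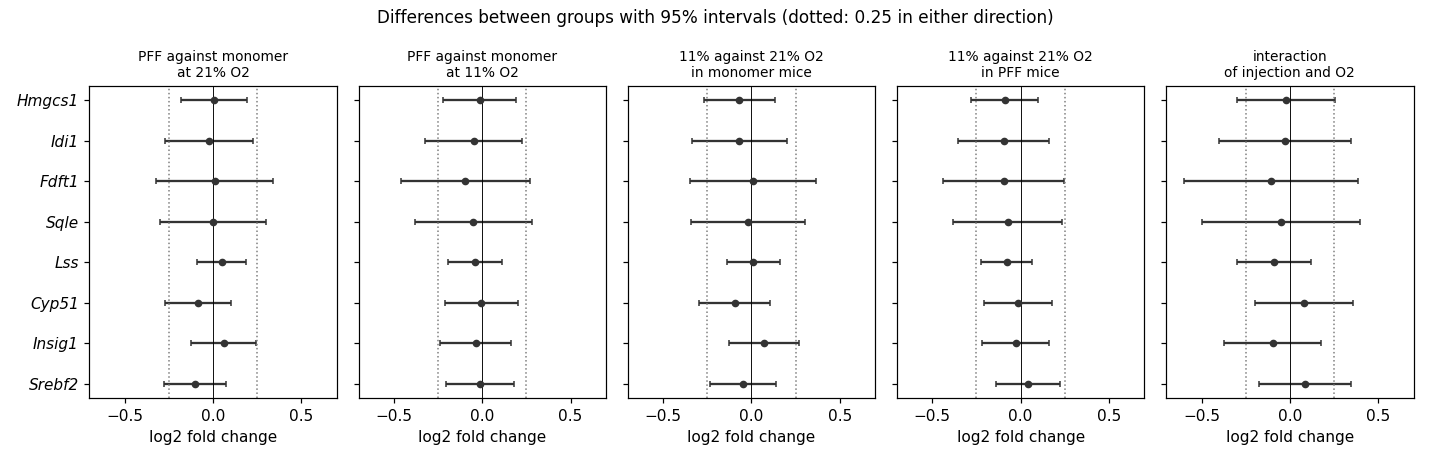
Log2 fold change of each of the 8 genes in the 5 comparisons, with 95% intervals from edgeR and dotted lines at 0.25 in either direction. All intervals cross 0, and the widest is that of *Fdft1* for the interaction, from -0.60 to 0.39.

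Taken batch by batch, on the counts before correction, the 8 genes stood together, and the block pointed opposite ways in different batches. For PFF against monomer at 21% O2, all 8 were lower in batch 1 (4 mice against 4), with a median log2 difference of -0.32 and a range from -0.44 for *Sqle* to -0.21 for *Lss*. In batch 2 (4 PFF against 7 monomer mice), all 8 were higher, with a median of 0.21 and a range from 0.074 for *Srebf2* to 0.31 for *Insig1*. In TPM before correction, *Insig1* in batch 1 had a mean of 201.96 ± 37.6 (SD, n = 4) with monomer and 159.4 ± 26.9 (SD, n = 4) with PFF. In batch 2 its mean was 140 ± 20.4 (SD, n = 7) with monomer and 172.8 ± 16.2 (SD, n = 4) with PFF. The monomer mice were thus the higher ones in batch 1 and the lower ones in batch 2.

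In batch 1 alone 0 of the 8 were called, against 0.0674% of all genes, with 1 of the 8 and 12.8% of all genes at an unadjusted p under 0.05 by edgeR. In batch 2 alone 1 of the 8 was called, against 3.90% of all genes, with 2 of the 8 and 20.6% of all genes at an unadjusted p under 0.05. That gene, named after its value was seen, was *Lss*, higher in PFF mice by 0.28 on the log2 scale (SE 0.077, edgeR adjusted p = 0.0469). The difference between the responses of the batches was then tested itself, in a fit chosen after these values were seen. It was positive for all 8 genes, from 0.38 for *Cyp51* to 0.64 for *Sqle*, 6 of the 8 had an unadjusted p under 0.05 against 14.2% of all genes, and 0 of the 8 were called against 1.15% of all genes, the smallest adjusted p being 0.0826 for *Lss*. Of all genes tested, 22.3% shared this order, lower with PFF in batch 1 and higher in batch 2.

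The other comparisons were taken batch by batch in the same way. For PFF against monomer at 11% O2, all 8 were higher in batch 1 (median 0.21) and 7 of the 8 lower in batch 3 (median -0.10). The difference between these batches called 0 of the 8 and 0% of all genes, with 0 of the 8 and 7.70% of all genes at an unadjusted p under 0.05 by edgeR. When both batches were fitted together, *Lss* and *Srebf2* did not change sign between them. The order higher with PFF in batch 1 and lower in batch 3 was shared by 27.1% of all genes tested. For 11% against 21% O2 in monomer mice, which only batch 1 can show within itself, all 8 were lower, from -0.14 for *Lss* to -0.59 for *Idi1*, with 3 of the 8 and 19.7% of all genes at an unadjusted p under 0.05. None of the 8 was called, against 2.01% of all genes. The smallest of these adjusted p-values was 0.0962. In TPM before correction, *Idi1* was at 55.6 ± 11.8 (SD, n = 4) in the monomer mice of batch 1 at 21% O2 and at 37.1 ± 10.7 (SD, n = 4) in those at 11% O2.

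For 11% against 21% O2 in PFF mice, the only contrast held by all 3 batches, all 8 were higher in batch 1 (median 0.16), all 8 lower in batch 2 (median -0.28), and 5 higher and 3 lower in batch 3 (median 0.025). In batch 2, 4 of the 8 and 8.73% of all genes had an unadjusted p under 0.05 by edgeR, and 0 of the 8 were called, against 0.0472% of all genes. The largest of these differences in batch 2 was that of *Fdft1*, at 53.7 ± 9.78 TPM (SD, n = 3) at 11% O2 and 75.0 ± 19.9 TPM (SD, n = 4) at 21% O2, a log2 difference of -0.46 (SE 0.21). The difference between batches 2 and 1 called 0 of the 8 and 0% of all genes, with 1 of the 8 and 7.28% of all genes at an unadjusted p under 0.05. The order higher at 11% O2 in batch 1 and lower in batch 2 was shared by 27.3% of all genes tested.

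The interaction can be taken within batch 1 only, and there all 8 values were above 0, with a median of 0.54 beside -0.039 on the corrected counts of all batches. They ran from 0.22 for *Lss* (SE 0.16) to 0.68 for *Idi1* (SE 0.27). Of the 8, 3 had an unadjusted p under 0.05 by edgeR, against 9.49% of all genes, and 0 were called, against 0.0741% of all genes, the smallest adjusted p being 0.523.

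**Figure D3:**
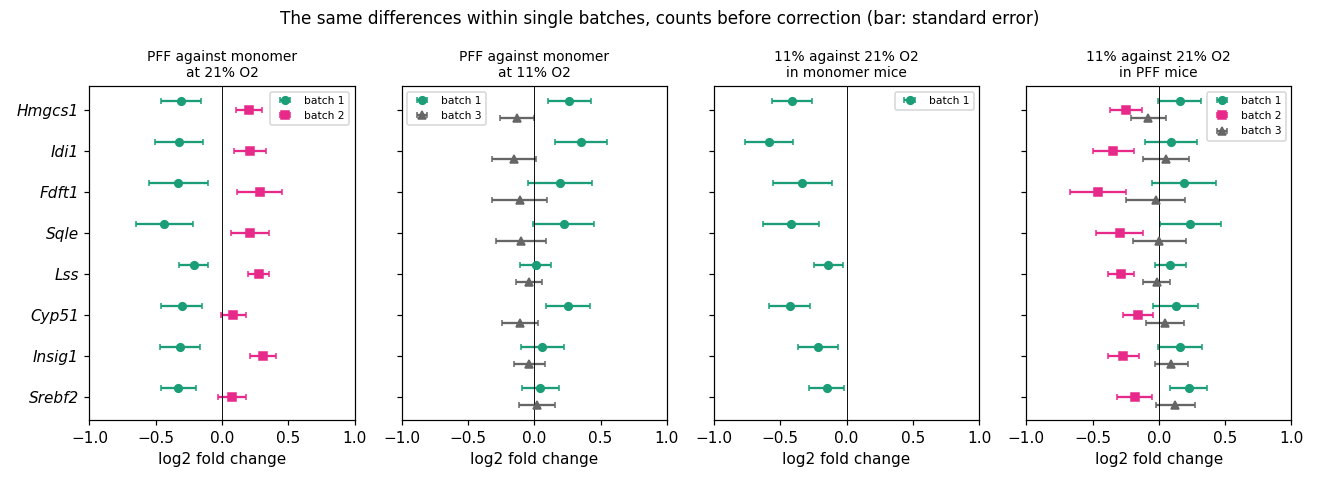
Log2 fold change of the 8 genes within single batches, from counts before correction, with SE as bars. For PFF against monomer at 21% O2 all 8 lie below 0 in batch 1 (median -0.32) and above 0 in batch 2 (median 0.21).

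The block was also present between mice of the same group. For each mouse, the deviation of a gene's log2 CPM (a count scaled to library size) from its group mean was taken over the 42 mice. Across mice, the 28 pairs of the 8 genes had a median Pearson r of 0.87, from 0.49 to 0.95, and a median Spearman rho of 0.89. These values are a description and were not tested. The tightest pairs were *Hmgcs1* with *Cyp51* (r = 0.95) and *Fdft1* with *Sqle* (r = 0.95), and the loosest was *Idi1* with *Srebf2* (r = 0.49). Leaving out the pair of mice farthest from the median of the first gene gave a median r of 0.86. The median r was 0.87 and 0.90 within monomer and PFF mice at 21% O2 and 0.92 and 0.90 within monomer and PFF mice at 11% O2. With counts before correction and deviations from the mean of group and batch, it was 0.95 in batch 1, 0.82 in batch 2 and 0.91 in batch 3, so the pairs moved together within batches as well. All 8 values come from the same library of a mouse and share its RNA and depth.

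The sum of the 8 genes shows the size of this common movement. It ran from 516 through a median of 683 to 937 TPM in monomer and from 494 through 687 to 947 TPM in PFF mice at 21% O2, and from 529 through 702 to 863 TPM in monomer and from 540 through 672 to 851 TPM in PFF mice at 11% O2. The spread of single genes around their group means, as an SD on the log2 scale, was 0.43 for *Fdft1*, 0.38 for *Sqle*, 0.31 for *Idi1*, 0.23 for *Hmgcs1*, *Cyp51* and *Insig1*, 0.22 for *Srebf2* and 0.17 for *Lss*, beside a median of 0.14 over all genes tested.

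**Figure D4:**
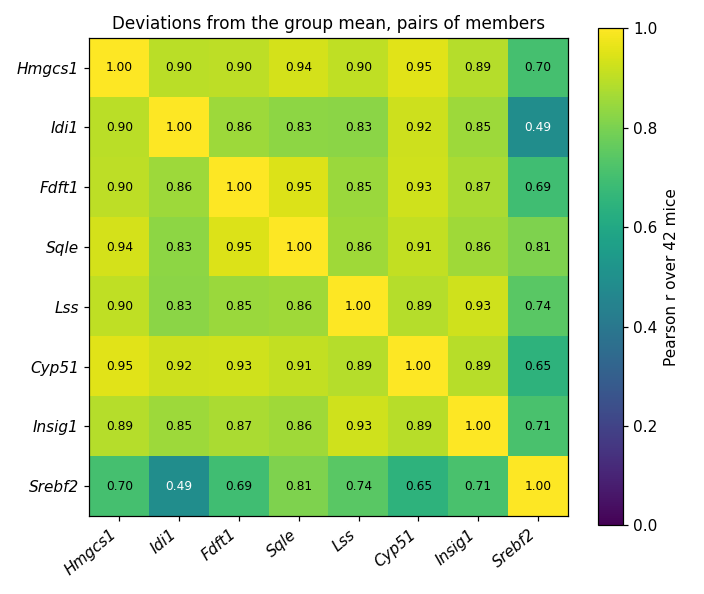
Pearson r over 42 mice between deviations from the group mean, for each pair of the 8 genes. The enzymes and *Insig1* form a tight block, *Hmgcs1* with *Cyp51* reaching 0.95, and *Srebf2* stands a little apart, with 0.49 against *Idi1*.

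Because the genes varied together, the DNA before their start sites is shown for motifs of factors known to drive the pathway. SREBP2 binds sterol regulatory elements and works with NF-Y, which binds CCAAT boxes. RefSeq promoter sequences (250 bases before to 50 after the start, GRCm38.p6) were matched by symbol for 6 of the 8 genes: *Hmgcs1*, *Idi1*, *Lss*, *Cyp51*, *Insig1* and *Srebf2*. Both strands were searched for TCACNCCAC, a sterol regulatory element, and for CCAAT, and in the 6 promoters no match of one overlapped a match of the other. CCAAT, often read as ATTGG on the other strand, was found in 6 of these 6 genes and in 41.1% of all 27025 genes with a promoter of that length. TCACNCCAC was found in 1 of the 6, *Hmgcs1*, and in 1.44% of all genes. Of 29 other sterol genes with a promoter, 0 held TCACNCCAC and 18 held CCAAT. Only this exact form of the sterol element was searched, so a promoter without a match may hold another form. Stretches of these promoters are printed 5′ to 3′ on the strand of the gene, ending before the RefSeq start site, with matches in capitals. The gene positions given above come from GENCODE, whose gene ends can differ from the RefSeq starts. The stretches of *Idi1* and *Cyp51* therefore lie inside the GENCODE positions of these genes.

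*Hmgcs1* (chr13:119690101-119690330, plus strand): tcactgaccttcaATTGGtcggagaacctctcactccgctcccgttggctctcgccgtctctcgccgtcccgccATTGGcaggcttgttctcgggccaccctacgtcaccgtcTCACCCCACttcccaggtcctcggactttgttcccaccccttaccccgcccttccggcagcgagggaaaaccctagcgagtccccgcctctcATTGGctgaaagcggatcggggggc
*Idi1* (chr13:8885541-8885605, plus strand): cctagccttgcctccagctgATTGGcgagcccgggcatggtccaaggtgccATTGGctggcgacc
*Lss* (chr10:76531523-76531567, plus strand): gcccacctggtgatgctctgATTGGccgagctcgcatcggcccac
*Cyp51* (chr5:4104702-4104746, minus strand): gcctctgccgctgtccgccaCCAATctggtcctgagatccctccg
*Insig1* (chr5:28071176-28071220, plus strand): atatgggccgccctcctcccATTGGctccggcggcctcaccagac
*Srebf2* (chr15:82147114-82147158, plus strand): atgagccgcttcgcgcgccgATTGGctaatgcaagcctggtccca

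Distances here are from the RefSeq start. In *Hmgcs1* the sterol element began 137 bases before the start and lay between CCAAT boxes that began 176 and 45 bases before it. *Idi1* had CCAAT boxes 45 and 14 bases before the start, and the other 4 had a single one, between 216 bases (*Insig1*) and 29 bases (*Cyp51*) before it. A match is a stretch of letters and not a measured binding site, and these data hold no measurement of binding.

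The common movement was not limited to the 8 genes. A score was made for each mouse as the mean of the 8 standardised deviations, and each of the 14839 genes was compared with it. Among the 6 genes outside the 8 that were most alike, over 42 mice, were *Msmo1* (r = 0.94), a sterol methyl oxidase after lanosterol, *Pam* (r = 0.94), which amidates neuropeptides, *Stard4* (r = 0.93), a carrier of cholesterol inside cells, *Cd200* (r = 0.93), a neuronal surface ligand of microglial receptors, and *Lclat1* (r = 0.93), an acyltransferase of lysophospholipids. The genes named kept an r between 0.92 and 0.93 without the pair of mice with the most extreme scores. The score is shared by much of the transcriptome: 13.5% of all genes tested had an r above 0.5.

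In the wider sterol list of 38 other genes, the enzymes followed the 8 genes more closely than the rest of the list did. Of 14 other synthesis genes, 13 had an r above 0.5, with a median of 0.84, and the exception was *Ebp*, a sterol isomerase (r = 0.38). Of the 24 genes of regulation, uptake, export and turnover, 2 had an r above 0.5, among them *Stard4*. Of the 7 export, esterification and turnover genes 5 had a negative r. The lowest value, named after it was seen, was that of *Abca1*, the cholesterol exporter (r = -0.87), and *Apoe*, the lipoprotein that astrocytes load with it, was at -0.70.

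The score also moved with cell type markers, in opposite directions for dopaminergic neurons and for glia. Against the mean standardised deviation of 8 dopaminergic neuron markers (*Th*, *Slc6a3* and 6 others), r was 0.82 and rho 0.86 over 42 mice, and r was 0.81 without the pair of mice farthest from the median of those markers. Within groups, r was 0.81 and 0.88 in monomer and PFF mice at 21% O2 and 0.69 and 0.93 in monomer and PFF mice at 11% O2. Against 10 astrocyte markers such as *Gja1* and *Slc1a2*, r was -0.84, and against 8 microglial markers it was also -0.84. Markers of neurons in general (0.33), of choroid plexus (0.33) and of oligodendrocytes such as *Mbp* (-0.23) followed it less. Endothelial (-0.46), oligodendrocyte precursor (-0.40), leptomeningeal (-0.40) and pericyte (-0.38) markers also had a negative r, so this direction was not limited to glia. Gene by gene, the r with the dopaminergic markers was highest for *Fdft1* (0.89) and lowest for *Srebf2* (0.55), and the r with the microglial markers ran from -0.72 for *Insig1* to -0.84 for *Sqle*.

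These marker lists varied strongly between mice of a group. The summed level of the 8 dopaminergic markers ran from 771 to 4000.1 TPM in monomer and from 671 to 4157 TPM in PFF mice at 21% O2, and from 581 to 4397 TPM in monomer and from 1308 to 3753 TPM in PFF mice at 11% O2, with none of the 8 at 0 in every mouse. Between groups, 0 of the 8 dopaminergic, 0 of the 10 astrocyte and 0 of the 8 microglial markers were called in any of the 5 comparisons. These called 3.70%, 0%, 7.23%, 0.580% and 2.14% of all genes, and in such short lists 0 called lies near these shares. For PFF at 21% O2, 8 of 8 microglial (median 0.13), 8 of 10 astrocyte and 6 of 8 dopaminergic markers were higher. For 11% O2 in monomer mice, 8 of 8 microglial (median 0.16), 8 of 10 astrocyte and 4 of 8 dopaminergic markers were higher. Against total counts before correction, the score had an r of -0.079 and a rho of -0.20.

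**Figure D5:**
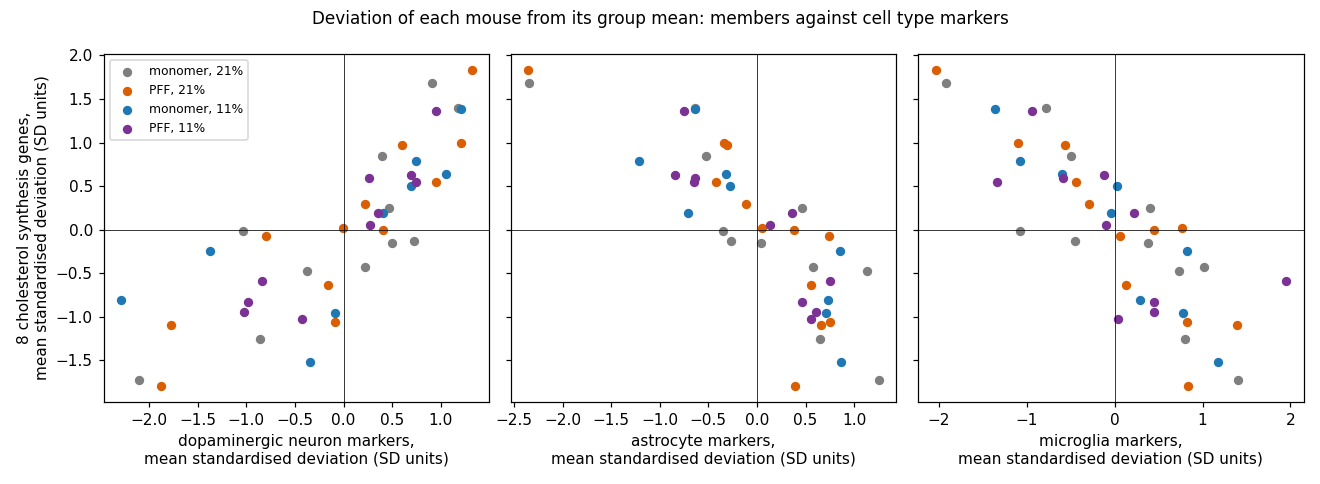
Mean standardised deviation of the 8 genes in each of 42 mice (vertical axis, SD units) against that of dopaminergic, astrocyte and microglial markers (horizontal axes, SD units), coloured by group. Mice with high dopaminergic markers have high levels of the 8 genes (r = 0.82), and the glial panels slope the other way (both -0.84).

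Within batches the marker medians are set beside those of the 8 genes, as values only. Of 72 dopaminergic, 90 astrocyte and 72 microglial values, 0 were called within a batch. An unadjusted p under 0.05 by edgeR was reached by 2, 2 and 7 of them. Of all genes, 0 to 579 of 14839 were called in a contrast within a batch, and 3.06% to 20.6% had such a p. Calls did occur in other lists, for example for PFF against monomer at 21% O2 in batch 2. There 2 of 10 oligodendrocyte, 1 of 5 precursor and 1 of 7 endothelial markers were called. For 11% against 21% O2 in monomer mice of batch 1, 4 of 5 pericyte, 1 of 10 oligodendrocyte and 1 of 7 endothelial markers were called. The SE of single dopaminergic markers ran from 0.19 to 0.59. For PFF against monomer at 21% O2, the median log2 difference of the dopaminergic markers was -0.35 in batch 1, with 0 of 8 higher, and 0.21 in batch 2, with 7 of 8 higher, beside -0.32 and 0.21 for the 8 synthesis genes. For 11% against 21% O2 in PFF mice it was 0.43 in batch 1, -0.30 in batch 2 and 0.14 in batch 3, beside 0.16, -0.28 and 0.025. For 11% against 21% O2 in monomer mice of batch 1 it was -0.21, beside -0.37, and for PFF against monomer at 11% O2 it was 0.29 in batch 1 and -0.054 in batch 3, beside 0.21 and -0.10. For the interaction in batch 1 it was 0.66, beside 0.54. The microglial markers had medians of 0.34 in batch 1 and -0.00050 in batch 2 for PFF against monomer at 21% O2, and of -0.22 in batch 1 and 0.046 in batch 3 at 11% O2. For 11% against 21% O2 they had a median of 0.38 in batch 1 among monomer mice. Among PFF mice it was -0.17 in batch 1, 0.22 in batch 2 and 0.014 in batch 3. The astrocyte markers had 0.16 in batch 1 and -0.061 in batch 2 for PFF against monomer at 21% O2, and -0.028 in batch 1 and -0.038 in batch 3 at 11% O2. For 11% against 21% O2 they had 0.14 in batch 1 among monomer mice. Among PFF mice the median was -0.082 in batch 1, 0.13 in batch 2 and -0.013 in batch 3. The interaction in batch 1 was -0.55 for the microglial and -0.19 for the astrocyte markers. The part of these markers in the movement of the 8 genes was not tested.

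Among the 38 other sterol genes, all of which passed the filter, 1 was called in any comparison, in the one that called 7.23% of all genes. *Srebf1*, which encodes the SREBP1 factors of fatty acid synthesis, rose with 11% O2 in monomer mice, by 0.38 on the log2 scale (SE 0.078, edgeR adjusted p = 0.000642). Its TPM ran from 84.7 through a median of 117 to 130 in the monomer mice at 21% O2 and from 110 through 147 to 180 in those at 11% O2, and from 103 through 128 to 150 and from 121 through 138 to 165.6 in the PFF mice at 21% and 11% O2. The monomer groups thus overlapped only between 110 and 130 TPM. In PFF mice *Srebf1* was 0.14 higher at 11% O2 (SE 0.074, adjusted p = 0.488) and the interaction was -0.24 (SE 0.11, adjusted p = 0.260), so the response was not shown to differ between injections. In batch 1 alone the difference in monomer mice was larger, 0.50, but was not called (adjusted p = 0.0685). *Srebf1* ran against the score of the 8 genes between mice (r = -0.60). Over the same comparison all 7 endothelial and all 5 pericyte markers and 3 of 10 oligodendrocyte markers were called higher. Of 5 oligodendrocyte precursor markers, 1 was called as well. The part of these cells in the value of *Srebf1* was not tested.

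In the other comparisons 0 of the 38 were called in either direction by edgeR, with 4 at an unadjusted p under 0.05 for PFF at 21% O2 (22.4% of all genes), 0 for PFF at 11% O2 (3.92%), 0 for 11% against 21% O2 in PFF mice (10.7%) and 2 for the interaction (15.4%). By role, for 11% against 21% O2 in monomer mice, 1 of 7 regulators was called higher, and 0 of 14 synthesis, 0 of 10 uptake and 0 of 7 export genes were called. Of the 14 synthesis genes 11 were lower there and 13 were lower in PFF mice, with medians of -0.065 and -0.077, none of them called.

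The 6 mice that the authors left out are described from the TPM before correction. Of their 48 values for the 8 genes, 37 lay inside the range of the 42 mice kept and 11 lay below it, none above. A monomer mouse at 11% O2 (replicate 9) gave 6 of those 11 values, among them *Fdft1* at 32.9 TPM and *Hmgcs1* at 103 TPM, where the lowest mice kept had 41.0 and 111 TPM. The PFF mouse at 11% O2 left out as replicate 2 had 3134594 counts, where the mice kept had at least 12902996. Its *Lss*, at 9.32 TPM, was also among those values below the range. When these 6 mice were put back, with batch in the model of counts before correction, 0 of the 8 genes were called in each comparison. Of the 14839 genes tested, 389, 0, 753, 110 and 151 were called, in the order of comparisons used above. All 8 were then lower at 11% O2 in monomer mice (median -0.19, beside -0.12 for the 42 mice in such a fit). For PFF at 11% O2, 7 of the 8 were higher (median 0.066, beside 0.0024). The interaction was above 0 for 7 of the 8 (median 0.12, beside 0.097).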

How the data were processed

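RNA of the SN was poly(A)-selected and sequenced at 1 library per mouse in 48 mice. The authors aligned reads to mm10 with STAR 2.7.5a and counted them per gene of GENCODE with featureCounts 2.0.1, taking only the primary alignment where a read had more than 1, with strand not used. Their deposited counts are raw whole numbers, and beside them stand TPM made from them for 48 mice. After a principal components analysis the authors left out 6 mice, adjusted the other 42 for harvest date with ComBat-seq while keeping O2 and injection as covariates, and deposited the corrected counts and the TPM made from those, for protein-coding genes. This correction moves the levels of a group toward a common mean over batches, so within-batch values were taken from the counts before it.

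Corrected counts were fitted with edgeR 4.0.16 in R 4.3.3 (TMM, filterByExpr by group, a single factor of 4 groups, no batch term). The SE was derived from the log2 fold change and F (its size over root F), and 95% intervals use the t quantile with the test's degrees of freedom. The call needed an adjusted p under 0.05 and a change beyond 0.25 on the log2 scale. DESeq2 1.42.0 and limma 3.58.1 on log2(TPM + 1) and log2(TPM + 0.1) were alternatives, as were other normalization, no filter, batch as a covariate, single batches, a replicate block and leaving out each mouse. The edgeR script was tested on simulated data. Positions were looked up by gene identifier in the vM21 release of GENCODE, on GRCm38. The members, the list of 38 other sterol genes, the marker lists and the motifs were chosen with earlier results of these data known. Named were all 8 members, other sterol genes that were called, and genes among the 6 most like the members. Some further results on single genes are not reported here. Between 12902996 and 17120921 counts per mouse set the depth. The authors' own test results, and proteomics, were not used.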

Additional observations from a re-analysis of the deposited data

How the results depend on the processing

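In the 5 comparisons, the count of the 8 synthesis genes called was 0 under each alternative, except for PFF against monomer at 21% O2 in batch 2 alone, where it was 1 (*Lss*, 0.28 on the log2 scale). Leaving out each of the 42 mice in turn gave 0 called in every comparison, with a smallest adjusted p of 0.315. With the replicate block the count was 0 in all 5 comparisons. The study's methods describe matching of mice between groups, but neither they nor the labels tie it to the replicate numbers. Of 54 same-numbered pairs, 39 shared a batch. Their deviations had a median r of 0.0033, from -0.40 to 0.56, and 21 of the 54 were above 0.1 (12 of the 39), so the numbers were not taken as pairs. Of the values of single members, 38 of 72 had the opposite sign within a single batch and 42 of 120 in the fits before correction, against 104 of 1680 with a mouse left out and 19 of 352 under the other alternatives. None of these members was called in the corrected table, and the cause was not tested. Among the 38 other sterol genes, the count for 11% against 21% O2 in monomer mice went from 1 to 4 on the adjusted p alone, adding *Lipa*, *Mbtps1* and *Vldlr*, since their changes lie under 0.25, and to 0 in batch 1 alone, which has fewer mice. The count for PFF at 21% O2 went from 0 to 2 in batch 2 alone (*Mvk*, 0.37, and *Hsd17b7*, 0.35). *Srebf1* in monomer mice lay between 0.37 and 0.50 under 13 alternatives and was called under 12, the exception being batch 1 alone. With a mouse left out it lay between 0.35 and 0.43 and was called in all 42 fits. For the 8 genes, no mouse stood apart from its group in the groups of 9 and 10 mice, and larger groups were not tested for this. *Fdft1* and *Sqle* are the members whose spread between mice limits the precision most.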
